A study of Mus musculus with 6 samples.

Results

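Progression of a cell from G1 into S phase is set by cyclin-dependent kinases (CDKs), and 10 mouse genes for their inhibitors and cyclins are described here in RENCA cells with and without overexpression of the water channel AQP1. The genes were chosen by symbol, to set the fall of Cdkn1a among other G1 regulators, and make up 10 of the 78298 genes in the count table. They are the CIP/KIP inhibitors Cdkn1a, Cdkn1b and Cdkn1c, the INK4 inhibitors Cdkn2a, Cdkn2b and Cdkn2c, the D cyclins Ccnd1, Ccnd2 and Ccnd3, and the E cyclin Ccne1.

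D cyclins bind CDK4 and CDK6 as growth signals arrive, and E cyclins bind CDK2 later in G1. These kinases phosphorylate the retinoblastoma (RB) family, which then releases E2F factors to turn on the genes of DNA replication. INK4 proteins bind CDK4 and CDK6 and keep D cyclins from them, whereas CIP/KIP proteins bind cyclin-CDK complexes and above all inhibit those of CDK2. Much of this control acts on the proteins, through their turnover and phosphorylation, which RNA counts do not show.

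RENCA cells are a line of mouse renal adenocarcinoma. Cells carried either a lentiviral vector for mouse Aqp1 under the human ubiquitin C promoter (oe-AQP1, 3 samples) or the empty control vector (oe-NC, 3 samples). Both groups were put under puromycin at 2 μg/mL from 48 h after transduction, selected for 14 days and harvested near confluence, under the same batch label. The samples are labelled as 2 weeks. Total RNA was sequenced, and each sample held 18385714.02 to 21920898.67 expected counts, which are estimated reads per gene. The study describes a stable oe-AQP1 line, and the samples are described as biological replicates without saying whether they came from separate transductions, so the p-values measure only the spread between these samples, which may be technical.

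Aqp1 itself checked the labels. It stood at 389, 388 and 381 CPM (counts scaled to library size, with TMM scaling between samples) in oe-AQP1 samples 1 to 3 and at 2.09, 1.37 and 2.11 CPM in oe-NC samples 1 to 3. The groups were fully apart and in the labelled direction. As to cell type, 8 of 9 renal epithelial markers were detected, with a summed level of 829 to 858 CPM in oe-AQP1 and 1003 to 1113 CPM in oe-NC. The most abundant was the keratin gene Krt8, which was lower in oe-AQP1 (log2 fold change, log2FC, −0.41, SE 0.04; limma-voom adjusted p = 6.43e-05), and the defining marker Epcam was at 0 in all 6 samples. Of 7 macrophage markers, Ptprc, Adgre1 and Itgam were under 1 CPM in all samples, the most abundant was Cd68, and the list summed to 58.9 to 62.1 CPM in oe-AQP1 and 69.2 to 71.2 CPM in oe-NC. Of 6 fibroblast markers, Pdgfra, Dcn, Lum and Thy1 were under 1 CPM, the most abundant was Col1a1, and the list summed to 12.6 to 13.8 CPM against 18.1 to 26.6 CPM. The 4 endothelial markers, led by Pecam1, summed to at most 1.73 CPM in any sample. Of the epithelial markers tested, 4 of 8 were lower at a limma-voom adjusted p under 0.05 (16.6% of all genes were), and none was called higher in this fit. Pax2 was called higher without oe-NC 1 (0.41, limma-voom adjusted p = 3.99e-06). With all samples it was also called higher under sample quality weights and with sample numbers as blocks (replicate block). Of the macrophage markers tested, 2 of 4 were lower, Lyz2 (log2FC −0.52; limma-voom adjusted p = 0.000273) and Csf1r, at 3.29 ± 0.435 CPM (SD, n = 3) in oe-AQP1 and 9.42 ± 0.599 CPM in oe-NC (−1.51; adjusted p = 1.31e-05). Of the fibroblast markers tested, 1 of 2 was lower, Col1a1 (−0.73; adjusted p = 0.00238). Pax2, Lyz2 and Csf1r were named after their values were seen, and the part of these markers in the results for the G1 regulators was not tested. These are bulk samples, in which fewer cells of a type and less RNA per cell cannot be told apart.

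The sample oe-NC 1 stood apart from its group. A chi-square statistic per gene between pairs of replicates was 9.54 and 11.1 for oe-NC 1 against the other oe-NC samples, and between 1.71 and 2.04 for the remaining pairs of either group. The results for the members are therefore given with and without it, as are counts of calls that it moved. Genes called only when a sample was left out were named after their values were seen.

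Cdkn1a and Ccne1 were lower in oe-AQP1, Cdkn1a by far the more, and Ccnd1, per length the most abundant of the 10, did not differ detectably. A gene was called where its limma-voom adjusted p (Benjamini-Hochberg, over all 15522 genes tested) was under 0.05, and termed a differentially expressed gene (DEG) where its log2FC was also beyond 1 in size. Of the 9 members with enough counts to be tested, 2 were called lower (22.2%), beside 16.6% of all genes tested. None of the 9 was called higher, beside 16.0% of all genes; edgeR's quasi-likelihood test and DESeq2 also called none higher, and at an unadjusted limma-voom p under 0.05 none was higher (21.2% of all genes) and 6 were lower (66.7%, beside 21.6% of all genes). As a DEG, 1 member was lower (Cdkn1a), beside 0.844% of all genes. The fall of Cdkn1a was known when the list was chosen, so its part in these counts was set beforehand. The other member called lower was Ccne1, which was not a DEG. Without oe-NC 1, 4 members were called lower (44.4%), beside 20.7% of the 16085 genes then tested; Cdkn2a and Ccnd3 were those added. At the adjusted p and with all samples, the share called lower was thus near that of the whole table.

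All 9 tested members had a log2FC below 0, with a median of −0.18, beside 0.0023 for all genes tested and 7707 of the 15522 genes below 0. Ccnd1 was the exception in 4 other settings, at 0.0094 without oe-NC 1, 0.0095 when samples were scaled by library size alone, 0.0060 with sample quality weights and 0.0055 with only genes of at least 10 counts in every sample. In 7 of the 9, each oe-AQP1 sample lay below each oe-NC sample, beside 23.8% of all genes tested. No member showed the opposite pattern, which 23.5% of all genes showed. The 7 genes without overlap were Cdkn1a, Cdkn1b, Cdkn2a, Cdkn2b, Cdkn2c, Ccnd3 and Ccne1, a comparison added after the values were seen. For 5 of these the difference did not pass the test across all genes. Without oe-NC 1 the median of the 9 was −0.11.

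**Figure D1:**
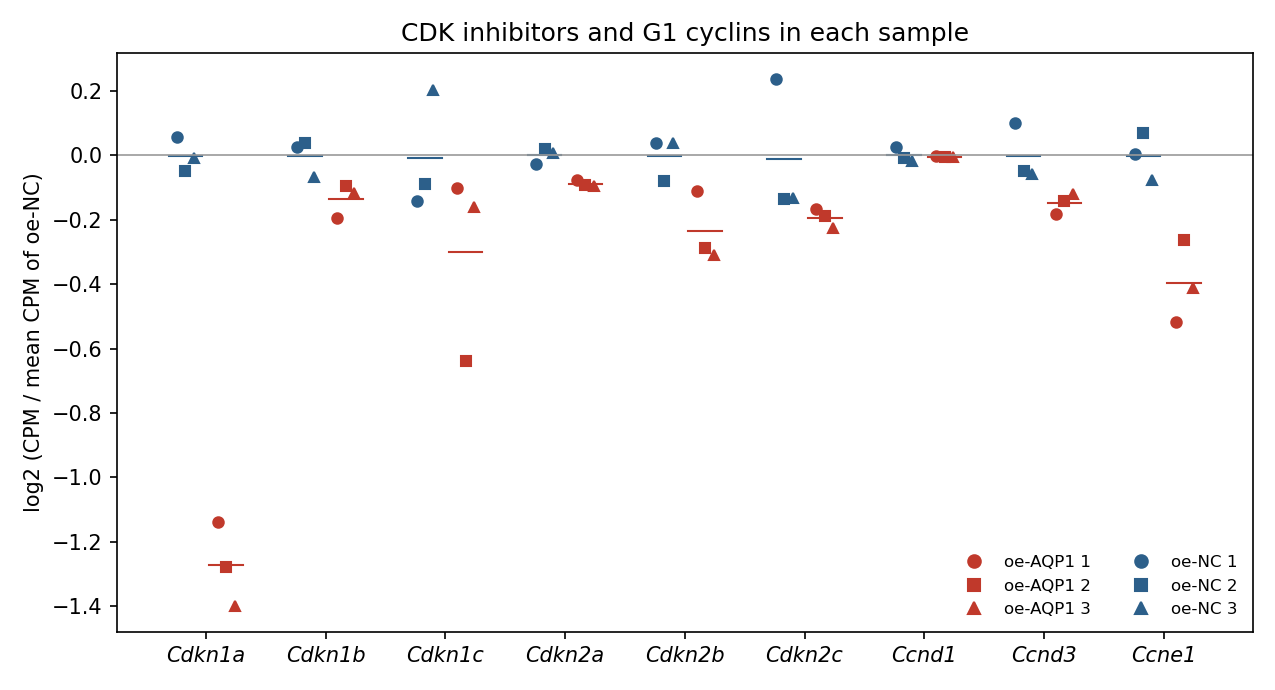
Each point is 1 sample, as the log2 ratio of its TMM-scaled CPM to the mean CPM of the 3 oe-NC samples, for the 9 members tested; short lines are group means of these values. Cdkn1a stands apart by its size, Ccnd1 lies on the oe-NC level in all 3 oe-AQP1 samples, and oe-NC 1 is far above the other samples for Cdkn2c.

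Among the CIP/KIP genes, Cdkn1a encodes p21, the inhibitor best known as a direct target of p53 and as a brake on the cell cycle after DNA damage and in senescence. Its gene lies at chr17:29309936-29319701 on the forward strand (GRCm39). Cdkn1a was at 41.6, 37.7 and 34.7 CPM in oe-AQP1 samples 1 to 3 and at 95.1, 88.4 and 91.0 CPM in oe-NC samples 1 to 3. The groups did not come near each other, and the replicates of each lay close together. The log2FC was −1.27 (SE 0.06, 95% confidence interval −1.42 to −1.13, n = 3 and 3; limma-voom adjusted p = 1.97e-07), so that oe-AQP1 held 41.4% (37.5 to 45.7%) of the control level. Without oe-NC 1 it was −1.25 (−1.35 to −1.14). The exact two-sided permutation p was 0.1, the smallest that 3 against 3 samples allow. Among all 15522 genes tested, many of which have few counts, Cdkn1a had the 89th most negative log2FC, a ranking chosen after the values were seen.

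Cdkn1b encodes p27, an inhibitor that accumulates in resting cells and is controlled largely by degradation through SKP2. It was at 35.8, 38.4 and 37.8 CPM in oe-AQP1 and at 41.8, 42.1 and 39.1 CPM in oe-NC. The groups were next to each other without overlap, and the difference was small beside that of Cdkn1a. The log2FC was −0.13 (95% confidence interval −0.25 to −0.01) and did not pass the test over all genes (limma-voom adjusted p = 0.0945). Without oe-NC 1 it was −0.11 (adjusted p = 0.0929).

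Cdkn1c, the imprinted gene of p57, was detected in all samples at low counts. Its expected counts were 30, 22.99 and 30 in oe-AQP1 and 29, 28 and 40 in oe-NC. The samples overlapped, and the interval of its log2FC (−0.81 to 0.20 around −0.30; limma-voom adjusted p = 0.341) leaves both directions possible at this depth. Without oe-NC 1 it was −0.37 (−0.95 to 0.21; adjusted p = 0.308), and it shrank to −0.13 without oe-AQP1 2 (0.742) and −0.19 without oe-NC 3 (0.619). The lncRNA gene 4933417O13Rik, annotated on the same strand over the whole gene body without sharing exon bases, had 18 to 35 counts, and the reads of the pair may not be fully separable.

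The INK4 group showed small differences. Cdkn2a encodes 2 unrelated proteins from different first exons, the CDK4 and CDK6 inhibitor p16INK4a and the p53 activator p19ARF, and the counts per gene do not separate them. It was at 122, 121 and 120 CPM in oe-AQP1 and at 126, 131 and 129 CPM in oe-NC. The oe-AQP1 samples lay just below the oe-NC samples and hardly differed among themselves. The log2FC was −0.09 (95% confidence interval −0.17 to −0.01), not called with all samples (limma-voom adjusted p = 0.0973) and called without oe-NC 1 (−0.10, −0.16 to −0.04; adjusted p = 0.00803).

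Cdkn2b, the neighbour of Cdkn2a and the gene of p15INK4b, an inhibitor known to be induced by TGF-β, was at 11.7, 10.4 and 10.2 CPM in oe-AQP1 and at 13.0, 12.0 and 13.0 CPM in oe-NC. The highest oe-AQP1 sample was just under the lowest oe-NC sample. The log2FC of −0.24 (95% confidence interval −0.43 to −0.05) did not pass the test (limma-voom adjusted p = 0.0581). Without oe-NC 1 it was −0.22 (adjusted p = 0.0717).

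Cdkn2c, the gene of p18INK4c, was at 69.5, 68.6 and 66.7 CPM in oe-AQP1 and at 91.9, 71.1 and 71.2 CPM in oe-NC. The 91.9 CPM of oe-NC 1 made most of the difference, while the other oe-NC samples were just above the oe-AQP1 samples. With all samples the log2FC was −0.18 (95% confidence interval −0.38 to 0.02; limma-voom adjusted p = 0.147). Without oe-NC 1 it was −0.06 (−0.14 to 0.02; adjusted p = 0.226). Cdkn2d, the remaining INK4 gene and not among the 10, was at 15.6 to 17.7 CPM in oe-AQP1 and 15.8 to 18.2 CPM in oe-NC (log2FC −0.03, limma-voom adjusted p = 0.805), and its log2FC was −0.10 to 0.02 with 1 sample left out.

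Among the D cyclins, Ccnd1 is the main partner of CDK4 in many epithelial cells and a common target of growth factor and β-catenin signalling. It was at 1039, 1037 and 1036 CPM in oe-AQP1 and at 1059, 1034 and 1027 CPM in oe-NC. The oe-AQP1 samples fell inside the range of the oe-NC samples. With this depth the log2FC had a 95% confidence interval of −0.07 to 0.06 (−0.02 to 0.04 without oe-NC 1), so that oe-AQP1 held 95.5 to 104% of the control level (limma-voom adjusted p = 0.941). The opposite-strand gene LTO1 shares 2315 exon bases with Ccnd1 and was called higher (log2FC 0.19, SE 0.05; limma-voom adjusted p = 0.0153) at 786 to 1027 counts per sample, a call that was lost without oe-AQP1 1 (0.17; 0.0747) or oe-AQP1 3 (0.18; 0.0679). Whether reads were counted by strand is not stated, and without strand the reads of such a pair cannot be told apart; Ccnd1 had 18932 to 22841 counts per sample.

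Ccnd2 was not detected above the limit of the method. It had 1 count in oe-NC 1 and 0 in each of the other 5 samples, where a count of 0 allows up to 3 counts. This is 0.137 to 0.163 CPM depending on the sample, here scaled to library size without TMM. The limit covers counting error only. Ccnd2 was therefore not tested and no fold change is given.

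Ccnd3 was at 91.0, 93.7 and 95.1 CPM in oe-AQP1 and at 111, 99.9 and 99.2 CPM in oe-NC. The groups did not overlap, and oe-NC 1 was again the highest. The log2FC was −0.14 (95% confidence interval −0.26 to −0.03; limma-voom adjusted p = 0.0538), and without oe-NC 1 it was −0.09 (−0.16 to −0.02; adjusted p = 0.0329). Ccnd3 was also called without oe-NC 3 (−0.18; adjusted p = 0.0445), so the call depended on the samples included.

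Ccne1, which with CDK2 drives entry into S phase, lies at chr7:37797404-37808264 on the reverse strand (GRCm39). It was at 30.7, 36.7 and 33.1 CPM in oe-AQP1 and at 44.2, 46.2 and 41.7 CPM in oe-NC. All oe-AQP1 samples were below all oe-NC samples, with more spread within groups than for Cdkn1a. The log2FC was −0.39 (SE 0.07, 95% confidence interval −0.55 to −0.23; limma-voom adjusted p = 0.00214), which leaves 76.3% (68.4 to 85.1%) of the control level, and −0.38 without oe-NC 1 (adjusted p = 8.1e-05). Its exact two-sided permutation p was also 0.1. The remaining E cyclin, Ccne2, was at 28.5, 30.3 and 29.3 CPM in oe-AQP1 and at 30.8, 33.7 and 36.5 CPM in oe-NC. Its difference was in the same direction and smaller, not called with all samples (log2FC −0.19, 95% confidence interval −0.35 to −0.04; limma-voom adjusted p = 0.0571) and called without oe-NC 1 (−0.26; adjusted p = 0.00112). With all samples Ccne2 was called by edgeR (−0.20; adjusted p = 0.0471) and by limma-voom with sample quality weights (−0.24; adjusted p = 0.00336). So the inhibitor Cdkn1a and the cyclin Ccne1, which act in opposite directions on CDK2, were both lower at the RNA level.

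**Figure D2:**
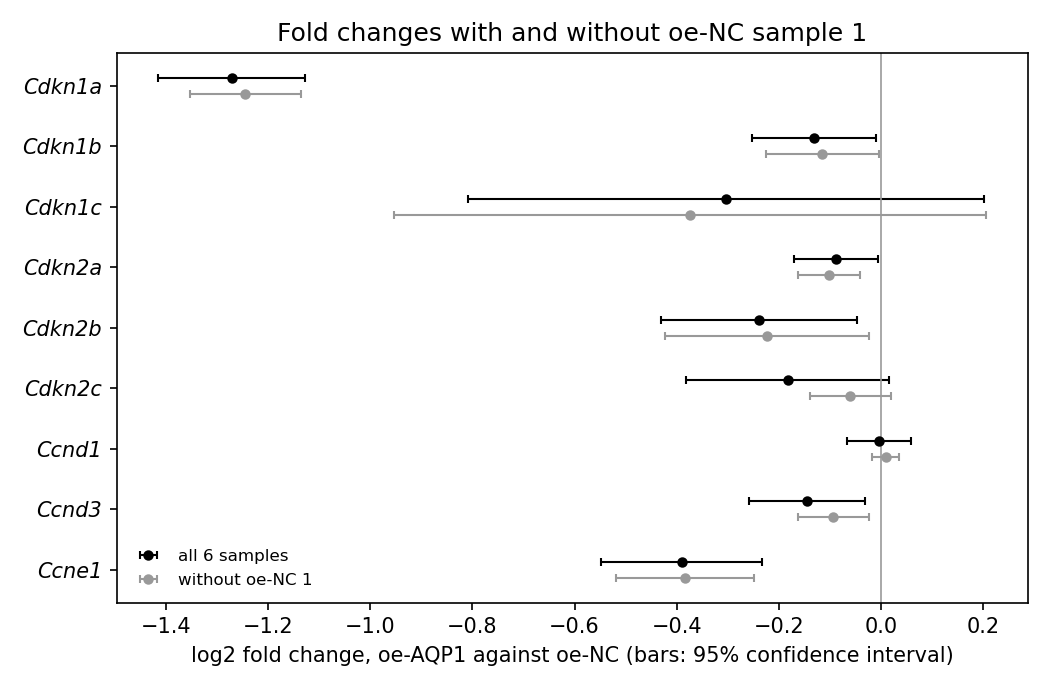
Points are log2FC of oe-AQP1 against oe-NC for the 9 members tested and bars are 95% confidence intervals, in black with all 6 samples and in grey without oe-NC 1. Cdkn1a is at −1.27 and −1.25, Ccne1 at −0.39 and −0.38, and Cdkn2c moves from −0.18 to −0.06 when oe-NC 1 is left out.

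Levels of different genes were compared per length, as TPM (counts divided by the length of the union of annotated exons, then scaled to the same sum in each sample). In oe-NC the order was Ccnd1 (845 ± 36.0 TPM, mean ± SD, n = 3), Cdkn2a (426 ± 5.52), Cdkn1a (58.8 ± 3.63), Cdkn2c (47.8 ± 8.70), Ccne1 (47.2 ± 2.89), Ccnd3 (43.4 ± 3.92), Cdkn1b (35.0 ± 2.05), Cdkn2b (18.0 ± 1.09) and Cdkn1c (2.93 ± 0.333), with Ccnd2 last. Cdkn1a and Cdkn2c, Cdkn2c and Ccne1, and Ccne1 and Ccnd3 had overlapping samples in this order. In oe-AQP1 Cdkn1a moved from place 3 to place 7 at 25.3 ± 2.19 TPM, below Cdkn1b at 33.1 ± 1.31 TPM. The levels of Ccnd3 (40.7 ± 1.09 TPM), Ccne1 (37.3 ± 3.43) and Cdkn1b overlapped with their neighbours in the order there, while those of Ccnd1 (875 ± 2.80) and Cdkn2a (417 ± 0.821) stood far above the rest.

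This order depends on the length used. The union of exons of Cdkn1a spans 6045 bases and its canonical transcript 1923, whereas for Cdkn1b both are 4552 bases. With the union of exons, the ratio of Cdkn1a to Cdkn1b was 1.58 to 1.75 in oe-NC and 0.691 to 0.874 in oe-AQP1. With canonical transcripts, a choice added after the values were seen, it was 4.97 to 5.51 in oe-NC and 2.17 to 2.75 in oe-AQP1. With them Cdkn1a stood at place 4 in oe-NC, below Ccnd3 with overlapping samples, and at place 5 in oe-AQP1 (46.3 ± 3.98 TPM), above Ccne1 and Cdkn1b. The ratio to Cdkn1b was lower in every oe-AQP1 sample with either length, but whether Cdkn1a RNA was below that of Cdkn1b in oe-AQP1 cannot be settled without transcript-level counts.

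**Figure D3:**
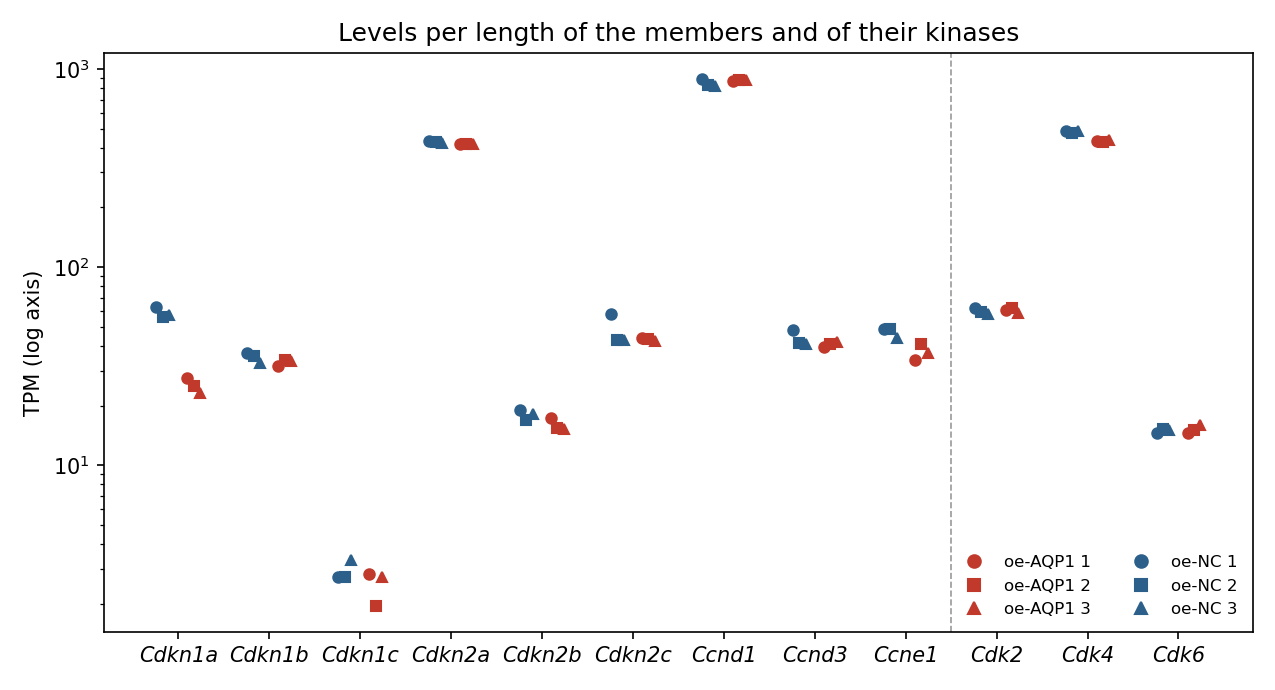
TPM per sample on a log axis for the 9 members tested and, right of the dashed line, for the kinases Cdk2, Cdk4 and Cdk6; each point is 1 sample and lengths are unions of exons. Ccnd1, Cdkn2a and Cdk4 stand above 400 TPM in all 6 samples, and Cdkn1a falls from 56.2 to 63.0 TPM in oe-NC to 23.2 to 27.6 TPM in oe-AQP1.

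Summed per sample, the 3 CIP/KIP genes stood at 93.4 to 102 TPM in oe-NC and 59.6 to 62.0 TPM in oe-AQP1. Cdkn1a made up 60.8% ± 1.12 (SD, n = 3) of this sum in oe-NC and 41.6% ± 2.78 in oe-AQP1. With canonical transcripts these shares were 82.8% ± 0.664 and 68.9% ± 2.43, so whether Cdkn1a was most of the CIP/KIP RNA in oe-AQP1 depends on the length used. The fall of the CIP/KIP sum was thus mostly that of Cdkn1a. The 3 INK4 genes summed to 481 to 508 TPM in oe-NC and 474 to 479 TPM in oe-AQP1, most of it Cdkn2a in each sample. Of the sum of all 6 inhibitors Cdkn1a held 9.65 to 10.3% in oe-NC and 4.36 to 5.11% in oe-AQP1, and 19.2 to 20.1% and 9.16 to 10.6% with canonical transcripts. Cdkn2a held most of that sum in each sample with either length. Its counts do not separate p16INK4a from p19ARF, which is not a CDK inhibitor, so an unknown part of the sum may not be inhibitor RNA. Cdkn1a, whose fall was known when the list was chosen, is also part of the sum and of the ratio below. The D cyclins summed to 858 to 933 TPM in oe-NC and 911 to 918 TPM in oe-AQP1, with Ccnd1 at 94.9 to 95.7% in all samples (83.5 to 85.8% with canonical transcripts). Set against the 6 inhibitors, the D cyclins had a ratio of 1.49 to 1.53 in oe-NC and 1.68 to 1.72 in oe-AQP1, and 1.33 to 1.35 and 1.57 to 1.62 with canonical transcripts. The ratio was higher in each oe-AQP1 sample than in each oe-NC sample; it is a description of RNA, with no test, and the amounts of protein were not measured.

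A further list held 10 genes, all tested, for G1 kinases, other cyclins and proteins that act on them, among which are the inhibitor Cdkn2d, the phosphatase Cdc25a and the chaperone Cdc37. Of these, 1 was called lower (16.6% of all genes) and none higher (16.0% of all genes), with a median log2FC of −0.03. None was higher at an unadjusted limma-voom p under 0.05 or by edgeR or DESeq2 either. Without oe-NC 1, 3 were called lower (20.7% of all genes were), with Ccne2 and Cdk7 (−0.12; limma-voom adjusted p = 0.0472) added. The gene called with all samples was Cdk4, the kinase partner of the D cyclins, at 369, 362 and 371 CPM in oe-AQP1 and 416, 425 and 439 CPM in oe-NC. Its groups were well apart, with a small difference (log2FC −0.22, SE 0.03; limma-voom adjusted p = 0.000945). Cdk6 (log2FC −0.03, 95% confidence interval −0.16 to 0.09) and Cdk2 (−0.03, −0.12 to 0.06), with overlapping groups, were not called and were named for their role whatever their value. Per length, Cdk4 was 27.5 to 29.6 times as abundant as Cdk6 in oe-AQP1 and 31.1 to 33.3 times in oe-NC. With canonical transcripts these ratios were 36.7 to 39.6 and 41.6 to 44.5. With either length, most RNA of the kinases that D cyclins bind was thus Cdk4.

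In the RB family with its E2F factors and the MuvB subunits, which repress cell cycle genes in resting cells as part of the DREAM complex, 3 of 17 genes were called higher (17.6%, beside 16.0% of all genes) and 3 lower (17.6%, beside 16.6%), with a median log2FC of 0.07. The pocket protein gene Rbl1 (log2FC 0.17) and the MuvB genes Lin9 (0.30) and Lin54 (0.27) rose. The dimerization partners Tfdp1 (−0.17) and Tfdp2 (−0.34) and the repressor E2f7 (−0.15) fell. Rb1 itself was at 12.5 to 14.7 CPM in oe-AQP1 and 14.2 to 16.5 CPM in oe-NC and was not called (limma-voom adjusted p = 0.203; named after its value was seen). The calls on Rbl1 (adjusted p up to 0.0991 without any 1 of the oe-AQP1 samples or oe-NC 3; log2FC 0.16 to 0.19), E2f7 (up to 0.12 without any 1 of the oe-AQP1 samples or oe-NC 2; −0.16 to −0.13) and Tfdp2 (0.0609 without oe-AQP1 1 and 0.0515 without oe-AQP1 3; −0.27 and −0.34) were lost when these were left out. Without oe-AQP1 1 or oe-AQP1 3, 1 gene was called lower. Without oe-NC 1, 5 genes were called higher and 4 lower, with E2f4 (0.16; limma-voom adjusted p = 0.000757) and E2f2 (0.15; 0.0206) added to the higher and Rbl2 (−0.18; 0.0258) to the lower calls. Of all genes, 19.4% were then called higher and 20.7% lower. Both shares called with all samples were near those of the whole table, and none of these genes was then a DEG.

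Of 16 genes for the turnover of G1 cyclins and CDK inhibitors, 6 were called lower (37.5%, beside 16.6% of all genes) and 2 higher (12.5%, beside 16.0%), with a median log2FC of −0.05. Without oe-NC 1, 9 were called lower and 2 higher, beside 20.7% and 19.4% of all genes. Only 1 was called higher when any 1 of oe-AQP1 1, oe-AQP1 2, oe-NC 2 and oe-NC 3 was left out, or when genes were not filtered for low counts. The lowest and the highest gene both encode subunits of the CRL4-CDT2 ubiquitin ligase, which marks p21 for degradation in S phase, and they changed in opposite directions. The adaptor gene Ddb1 was the lowest at 568 to 583 CPM in oe-AQP1 and 742 to 824 CPM in oe-NC (log2FC −0.43, SE 0.04; limma-voom adjusted p = 3.27e-05). The substrate receptor gene Dtl was the highest, at 116 ± 1.59 CPM (SD, n = 3) in oe-AQP1 and 93.0 ± 2.09 CPM in oe-NC (0.32, SE 0.04; adjusted p = 0.000156). Of the other subunit genes of this ligase, named after their values were seen, Cul4a was called lower (−0.23; limma-voom adjusted p = 0.00099). Cul4b (−0.10, adjusted p = 0.0899) and Rbx1 (−0.00065, 0.994) were not called with all samples and no quality weights. Both were called lower without oe-NC 1 (−0.12 and −0.07, adjusted p = 0.0057 and 0.0472), and Cul4b also with sample quality weights. Skp2, the receptor for p27, was at 72.4 to 75.4 CPM and 71.3 to 80.3 CPM and was not called (adjusted p = 0.574, and 0.0474 with a log2FC of −0.09 without oe-NC 1; named after its value was seen).

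Most of the genes that E2F drives at G1/S were not called. Of 25 genes, 6 were called lower (24.0%, beside 16.6% of all genes) and 1 higher, with a median log2FC of −0.02. The extremes were Rrm2, a subunit of ribonucleotide reductase, at −0.31 (SE 0.03; limma-voom adjusted p = 7.88e-05) and Gins1, of the replicative helicase, at 0.30 (SE 0.08; adjusted p = 0.0189), which was not called without oe-AQP1 1 (0.30; 0.0582) or oe-AQP1 2 (0.28; 0.0767). Of 12 genes of G2 and mitosis, 3 were called lower (25.0%) and none higher (median −0.03). Ccnb2, a mitotic cyclin, was the lowest at 61.5 to 64.9 CPM in oe-AQP1 and 85.8 to 90.0 CPM in oe-NC (log2FC −0.47, SE 0.04; adjusted p = 2.47e-05), and Plk1, a mitotic kinase, had the smallest change of the 3 called (−0.19) and was not called without any 1 of the oe-AQP1 samples (−0.20 to −0.18; adjusted p 0.0669 to 0.0823). With all samples, 1 of the 25 and none of the 12 genes were thus called higher, beside 16.0% of all genes tested. None of the 12 was higher at an unadjusted limma-voom p under 0.05, nor called higher by edgeR or DESeq2. These counts changed with the samples included. Without oe-NC 1, 3 of the 25 were called higher and 9 lower, with Cdt1 (0.18; limma-voom adjusted p = 0.000396) and Chaf1a (0.13; 0.00141) added to the higher calls. Of the 12, 1 was then called higher, Foxm1 (0.17; adjusted p = 0.0012), and 5 lower, with Top2a (−0.06; 0.0103) and Ccnb1 (−0.16; 0.000824) added, beside 19.4% of all genes higher and 20.7% lower. Of the 25, none was called higher without oe-AQP1 1 or oe-AQP1 2, and 2 were without oe-AQP1 3.

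Of 17 genes of p53 and its targets, which do not include Cdkn1a, 5 were called higher (29.4%, beside 16.0% of all genes) and 3 lower (17.6%, beside 16.6%), with a median log2FC of 0.01. Without oe-NC 1 the counts were 5 higher and 4 lower, beside 19.4% and 20.7% of all genes, with a median log2FC of −0.0089. The counts were 3 higher and 1 lower without oe-AQP1 1, 3 and 2 without oe-AQP1 2, 2 and 1 without oe-AQP1 3, and 3 and 3 without oe-NC 3 or by DESeq2. Trp53, the gene of p53 itself and named after its value was seen, was at 109, 114 and 111 CPM in oe-AQP1 and at 103, 95.2 and 94.0 CPM in oe-NC, a rise of 0.19 in log2 (SE 0.05; limma-voom adjusted p = 0.00954) that was not called without oe-AQP1 2 (0.18; 0.057). The lowest of the list was Bbc3, the gene of the apoptosis activator PUMA, at −0.47 (SE 0.14; adjusted p = 0.0241), not called without oe-AQP1 1 (−0.39; 0.0961) or oe-AQP1 3 (−0.50; 0.063). The highest was Eda2r, a receptor of the TNF receptor family, at 0.43 (SE 0.13; adjusted p = 0.0273), which was not called without oe-AQP1 1 or 3 or without oe-NC 1 or 3 (0.32 to 0.46; adjusted p 0.0543 to 0.104). Mdm2, named after its value was seen, was at 71.6 to 73.5 CPM and 64.9 to 73.5 CPM. With all samples no gene of this list was a DEG, and none had a log2FC as low as that of Cdkn1a.

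Of 29 tested transcription regulators known to act on the members, 7 were called higher (24.1%, beside 16.0% of all genes) and 3 lower (10.3%, beside 16.6%), with a median log2FC of 0.03 (0.07 without oe-NC 1). Without oe-NC 1, 9 were called higher and 3 lower, beside 19.4% and 20.7% of all genes. With all samples 2 were DEGs, Irf1 and Id1. Irf1, a transcription factor induced by interferon and a reported activator of Cdkn1a transcription, rose while Cdkn1a fell. It was at 68.9, 63.3 and 65.6 CPM in oe-AQP1 and at 25.0, 24.4 and 23.8 CPM in oe-NC (log2FC 1.43, SE 0.06; limma-voom adjusted p = 2.54e-08). It was high in every oe-AQP1 sample. Id1, an inhibitor of basic helix-loop-helix factors known to repress Cdkn2a, was the only DEG of the list that was lower, at 28.2, 28.1 and 28.9 CPM in oe-AQP1 and 64.8, 65.7 and 61.2 CPM in oe-NC (−1.17, SE 0.05; adjusted p = 6.93e-08). Its fall was close in size to that of Cdkn1a. Myc, whose protein represses Cdkn1a with the factor encoded by Zbtb17, was at 289 to 298 CPM in oe-AQP1 and 221 to 272 CPM in oe-NC (0.30, SE 0.07; adjusted p = 0.00672), and Zbtb17 was at 41.3 to 43.7 CPM and 30.9 to 39.7 CPM (0.30, SE 0.08; adjusted p = 0.0169), not called without oe-AQP1 1 or 2 or oe-NC 2 or 3 (0.22 to 0.29; adjusted p 0.0518 to 0.0679); this pair was named after its values were seen. All 7 interferon-stimulated markers were DEGs that rose, by a median log2FC of 1.97, beside 4.39% of all genes that were DEGs in that direction. They ranged from Bst2 (1.32) to Ifit3 (4.85), with Isg15, Ifit1, Irf7, Usp18 and Rsad2 between them. The list, led by Irf7, summed to 7496 to 7510 CPM in oe-AQP1 and 1600 to 1722 CPM in oe-NC. The part of these markers, and of the 29 regulators, named here or not, in the results for the G1 regulators was not tested.

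Of 28 annotated genes within 200 kb of Cdkn1a (GENCODE M39), 12 were tested, of which 2 were called lower (16.7%), 1 higher (8.33%) and none as a DEG. Without oe-NC 1, 3 were called higher, and none was without oe-NC 2 or any 1 of the oe-AQP1 samples. The pseudogene Rpl35a-ps3 was at 356 to 540 counts in oe-AQP1 and at 376.0, 35.2 and 366.5 counts in oe-NC samples 1 to 3 (log2FC 1.15; limma-voom adjusted p = 0.174), and it was a DEG without oe-NC 1 (1.67; 0.00586). Only oe-NC 2 was low, and the counts are uncertain, since such a copy can share reads with Rpl35a and its other pseudogenes. Trp53cor1, the lincRNA-p21 gene 11651 bases away and named after its value was seen, was not called, with 152 to 183 counts per oe-AQP1 sample beside 125 to 138 per oe-NC sample (log2FC 0.25, SE 0.11; limma-voom adjusted p = 0.122). The antisense genes that overlap Cdkn1a, Gm64878 and Dino, had at most 2 counts in any sample, beside 715 to 1943 counts for Cdkn1a. Around all 10 members, 58 of 195 neighbouring genes were tested, of which 12 were called higher (20.7%, beside 16.0% of all genes) and 6 lower (10.3%, beside 16.6%). With 1 sample left out, 6 to 14 were called higher and 2 to 9 lower, fewest without oe-AQP1 3 and oe-AQP1 2 and most without oe-NC 1. Over all genes, 1856 to 3125 were called higher and 1745 to 3331 lower in these fits. The only DEG among them with all samples was Bc1, next to Ccnd1, at 10 to 17 counts in oe-AQP1 and 1 to 5 counts in oe-NC (1.81, SE 0.51; adjusted p = 0.0215), and it was not called without oe-AQP1 3 (1.60; 0.0763) or oe-NC 1 (1.20; 0.0686). Bc1 passed the filter on low counts only through oe-AQP1, where it was high, and was not tested where at least 10 counts were required in every sample. The genes next to Cdkn2a, Cdkn2b and Cdkn2c held no call in either direction with all samples. Without oe-NC 1, Mtap, next to Cdkn2a and Cdkn2b, and Rnf11, next to Cdkn2c, were called lower. Of the other genes that overlap a member, Bysl shares 369 exon bases with Ccnd3 and 1600014C10Rik shares 70 with Ccne1, both on the opposite strand, and neither was called with all samples. Bysl was called higher without oe-NC 1 (log2FC 0.08; limma-voom adjusted p = 0.0446) and was at −0.03 to 0.04 with another sample left out. The rest of the overlapping genes had at most 62 counts.

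RefSeq promoter windows (GRCm38.p6, from 250 bases before to 50 bases after a transcription start) were found for 7 of the 10 members, 11 windows in all, for Cdkn1a, Cdkn1b, Cdkn2a, Cdkn2b, Cdkn2c, Ccnd3 and Ccne1. They were searched on both strands, and no match of a motif overlapped that of another. The GC box GGGCGG, the core to which SP1 binds, was in 9 of the 11 windows, beside 35.7% of all 32851 windows. The E2F motif TTTNNCGC was in 2 windows, both of Cdkn2a, beside 5.17% of all. The GC box was thus the only motif shared by most of the windows. The CRE TGACGTCA was in the window of Cdkn2b (1.79% of all) and the E-box CACGTG in 1 of the windows of Cdkn2c (7.15%). The TATA box TATAAA (13.6%), the ISRE core GAAANNGAA (8.56%) and the GAS motif TTCNNNGAA (8.30%) were in none of the 11. A match is a description of the letters, not a bound site, and a motif that is missing says nothing of sites outside these windows.

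The windows of the 2 members called lower are printed to show what their starts have in common and where they differ. Cdkn1a has 2 windows on the forward strand, at chr17:29090729-29091028 and chr17:29093519-29093818. The first holds a p53 response element, a motif added after the window was read: 20 bases that match the consensus at 19 positions, from 51 to 32 bases before the start, shown in capitals.
Cdkn1a, first window: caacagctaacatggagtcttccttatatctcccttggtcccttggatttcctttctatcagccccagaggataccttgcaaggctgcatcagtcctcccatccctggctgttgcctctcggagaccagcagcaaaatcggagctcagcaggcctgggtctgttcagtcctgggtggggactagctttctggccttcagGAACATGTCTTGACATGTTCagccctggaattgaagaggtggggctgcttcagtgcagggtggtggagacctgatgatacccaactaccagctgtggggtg
At most 1 mismatch to this consensus is found in 0.0883% of all windows, and a full match in 3 of them. The second window of Cdkn1a has 64.7% G and C, against 54.7% in the first, and 2 GC boxes, in capitals.
Cdkn1a, second window: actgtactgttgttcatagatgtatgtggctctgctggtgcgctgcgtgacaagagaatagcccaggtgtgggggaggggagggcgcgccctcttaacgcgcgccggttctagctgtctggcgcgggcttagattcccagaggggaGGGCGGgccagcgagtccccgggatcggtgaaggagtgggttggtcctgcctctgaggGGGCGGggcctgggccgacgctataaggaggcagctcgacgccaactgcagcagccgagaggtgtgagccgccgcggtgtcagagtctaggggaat
The only window of Ccne1, at chr7:38107441-38107740 and printed along the reverse strand, has 76.0% G and C and 4 GC boxes, in capitals (CCGCCC where the match is on the opposite strand).
Ccne1: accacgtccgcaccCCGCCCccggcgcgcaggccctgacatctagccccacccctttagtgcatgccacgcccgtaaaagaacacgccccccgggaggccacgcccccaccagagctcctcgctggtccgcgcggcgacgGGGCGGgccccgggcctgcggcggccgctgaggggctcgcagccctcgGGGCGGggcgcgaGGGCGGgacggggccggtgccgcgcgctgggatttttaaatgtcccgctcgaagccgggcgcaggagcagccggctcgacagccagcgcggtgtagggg
The counts per gene do not tell which of the starts of Cdkn1a was used in either group.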

How the data were processed

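The authors sequenced total RNA of RENCA cells with TruSeq libraries and deposited an expected count per gene, an estimated number of reads that need not be whole and is not scaled between samples. The submitters' processing notes name fastp, HISAT2, featureCounts and Subread and the builds GRCm38 and mm10, whereas the study's methods name GRCm39. Strand use in counting is not given in the sources used here. The 2 columns of group means were not used.

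Expected counts were rounded to whole numbers, filtered with filterByExpr, scaled by TMM and fitted with limma-voom (limma 3.58.1, edgeR 4.0.16, R 4.3.3), 3 oe-AQP1 against 3 oe-NC samples, with Benjamini-Hochberg adjustment over all genes. DESeq2 1.42.0 served as an alternative. The fits were tested on simulated data. Positions and lengths came from GENCODE M39 (GRCm39), which held 78168 of the 78298 genes, and promoters from RefSeq. The members and lists were chosen with earlier results of these data known. An item not reported here was left out of the list counts. Named besides the members were Aqp1, Ccne2, Cdkn2d, called genes of the kinase and RB lists, extremes and DEGs of the other pathway lists, overlapping or DEG neighbours and the most abundant marker of each cell type; other genes are said to be named after their values were seen.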

Additional observations from a re-analysis of the deposited data

How the results depend on the processing

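Cdkn1a and Ccne1 were called lower under each of the 16 alternatives to the fit, with log2FC of −1.34 to −1.21 and −0.46 to −0.33. Cdkn1b, Cdkn1c, Cdkn2b and Cdkn2c were called under none of them. Other methods, scalings, filters and left-out samples changed the following, and the cause was not tested.

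With sample quality weights 4 members were called lower, with Cdkn2a at −0.10 (adjusted p = 0.0178) and Ccnd3 at −0.11 (0.033), and Ccnd1 was at 0.0060. Of all genes, 3315 were then called lower, beside 2569 in the main fit. Ccnd3 was also called with upper quartile scaling (−0.15) and without the low-count filter (−0.16). Ccnd1 was at 0.0095 with library size only and at 0.0055 with at least 10 counts in every sample. Leaving out each sample in turn gave 2 to 4 members called lower, Cdkn2a at −0.10 to −0.081 (called without oe-NC 1), Ccnd3 at −0.18 to −0.093 (called without oe-NC 1 or oe-NC 3) and Ccnd1 at −0.014 to 0.0094. Over all genes, 1745 to 3331 were called lower in these fits. Of genes beside the members, Cdkn2d was at 0.021 without oe-AQP1 3 and 0.012 without oe-NC 1, Mdm2 at −0.0089 without oe-NC 1 and at most 0.077 with another sample left out, and Bysl at −0.0016 without the filter and at −0.026 to 0.083 with 1 sample left out (called higher without oe-NC 1). Ccne2 was called lower by edgeR (−0.20), with quality weights (−0.24) and with the replicate block (−0.20; adjusted p = 0.0447), each of which thus called 2 genes of the kinase list. With quality weights 5 genes of the RB list, 4 of the E2F targets and 1 of the G2 and mitosis genes were called higher. Library size only and at least 10 counts in every sample gave 5 of the RB list and 2 of the E2F targets. Of all genes, 3115, 2666 and 2389 were called higher in these settings, in that order, beside 2481 in the main fit. E2f7 and Eda2r were not called by DESeq2 or without the filter, where 3 p53 genes were higher, Bc1 not by DESeq2 and LTO1 not without the filter.

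Over all genes, DEGs were 681 higher and 131 lower; 204 were lower without the filter, and 416 were higher and 66 lower with at least 10 counts in every sample. At an adjusted p under 0.01, 1570 genes were called higher and 1572 lower. The sample numbers did not pair the groups, since same-numbered samples correlated at −0.00012, 0.015 and −0.053; with the replicate block 2 members were called lower, Cdkn1a at −1.27, and 2346 genes were higher and 2479 lower. Genes at a few CPM, such as Cdkn1c, are limited by depth.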
